A study of Mus musculus with 10 samples.

Results

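Erythroid genes of the membrane, of heme and iron supply and of red cell regulation were followed in cultured fetal testes. The set has 8 genes, picked by symbol from the 24470 genes of the count table: Slc4a1, Epb42 and Ermap of the membrane, Alas2 and Tfrc of heme and iron supply, and the regulators Klf1, Gata1 and Epor. All 8 symbols were found in the table.

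The libraries came from testes of 5 C57BL/6 mouse embryos at E12.5. Each embryo gave 1 gonad to vehicle (DMSO) and the other to 75 µM of the glycogen phosphorylase inhibitor CP 316819, called GPI here, and both were cultured for 48 h. The gonads were cultured with the mesonephros attached and separated from it before RNA was extracted, and each library is 1 whole gonad of 1 embryo (n = 5 per group, paired by embryo). The question of the comparison is what a block of glycogen breakdown does to the RNA of the early testis. GPI was given in the medium to the whole explant, not to 1 cell type, and its uptake by each cell type was not measured. In both groups the explant was cut off from the circulation during culture. The vehicle libraries held 10203679 to 15590223 counts (median 11114376) and the GPI libraries 11025409 to 15635322 (median 11691690). As a check of the tissue, the Sertoli cell gene Sox9 had a mean of 1231 normalized counts with vehicle and 1848 with GPI. A normalized count is a library's count divided by its TMM-scaled library size and multiplied by the mean of those sizes.

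Red cells fill with hemoglobin under the control of a small group of proteins. Erythropoietin binds its receptor, the product of Epor, and keeps red cell precursors alive. The zinc finger factors GATA1 and KLF1 then switch on the genes of hemoglobin, heme synthesis and the red cell membrane, GATA1 by binding GATA letters in DNA and KLF1 by binding CACCC letters. The transferrin receptor, encoded by Tfrc, brings iron into the cell, and ALAS2 makes the first compound of the heme pathway in red cell precursors. In the membrane, the anion exchanger encoded by Slc4a1 swaps chloride for bicarbonate and is joined to the skeleton under the membrane with the help of the Epb42 product, while ERMAP is a surface protein of the immunoglobulin superfamily. In the fetal testis such RNA comes with blood: at this stage nucleated red cells from the yolk sac circulate, and red cells from the fetal liver begin to appear. Tfrc is different from the others in being used by nearly all dividing cells.

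The RefSeq promoter windows of the genes (GRCm38.p6, from 250 bases before the start to 50 bases after it) were searched on both strands for the letters AGATAA or TGATAA, called GATA motif here, for CCACCC or CACACCC, called CACCC box, and for CATCTG, called E-box. A window was found for 7 of the 8 genes, and for Tfrc there were 2. The GATA motif was in the window of 5 of those 7 genes, against 18.6% of 32851 promoter windows of the same length. The CACCC box was in 6 of the 7 genes, against 36.5% of all windows, and the E-box in 3 of the 7, against 17.2%. Below are 4 windows of genes with lower counts after GPI, shown because each holds a GATA motif and each gene was called lower. Capitals mark the motif letters as they read on the gene's strand, so a motif that lies on the other strand appears as its reverse complement. The Alas2 window is chrX:150547167-150547466 on the plus strand, the Klf1 window chr8:84901732-84902031 on the plus strand, the Ermap window chr4:119189946-119190245 on the minus strand and the Epb42 window chr2:121036828-121037127 on the minus strand.
Alas2: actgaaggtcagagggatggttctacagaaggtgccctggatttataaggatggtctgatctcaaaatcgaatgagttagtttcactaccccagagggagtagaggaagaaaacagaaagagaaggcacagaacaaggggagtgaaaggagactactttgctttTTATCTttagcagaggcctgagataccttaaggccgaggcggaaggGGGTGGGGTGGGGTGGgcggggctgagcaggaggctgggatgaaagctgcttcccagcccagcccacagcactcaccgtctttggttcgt
Klf1: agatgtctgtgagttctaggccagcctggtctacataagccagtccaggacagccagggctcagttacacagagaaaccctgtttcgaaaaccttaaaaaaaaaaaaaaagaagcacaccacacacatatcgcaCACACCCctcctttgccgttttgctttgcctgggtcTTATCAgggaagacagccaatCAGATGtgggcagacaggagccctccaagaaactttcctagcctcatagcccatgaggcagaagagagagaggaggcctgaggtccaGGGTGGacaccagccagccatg
Ermap: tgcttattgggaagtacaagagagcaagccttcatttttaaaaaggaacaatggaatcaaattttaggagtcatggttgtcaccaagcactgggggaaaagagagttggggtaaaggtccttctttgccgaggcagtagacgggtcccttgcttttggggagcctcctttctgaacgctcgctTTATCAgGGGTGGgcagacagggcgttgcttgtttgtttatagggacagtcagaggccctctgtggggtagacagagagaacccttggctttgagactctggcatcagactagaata
Epb42: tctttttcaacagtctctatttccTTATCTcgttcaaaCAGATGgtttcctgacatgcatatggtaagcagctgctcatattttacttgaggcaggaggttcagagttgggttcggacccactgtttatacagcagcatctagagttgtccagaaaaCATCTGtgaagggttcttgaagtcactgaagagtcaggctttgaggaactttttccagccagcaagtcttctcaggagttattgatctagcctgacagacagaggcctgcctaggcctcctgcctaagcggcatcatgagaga

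Distances are counted from the RefSeq start that the window is built on, which for Klf1 and Ermap lies inside the gene as the count table places it. The GATA motif lay 86 bases before the start in Alas2, 80 in Klf1, 67 in Ermap, 54 in Epor and 226 in Epb42, in each of them on the strand opposite to the gene. In Ermap a CACCC box began 60 bases before the start, beside the GATA motif. In Alas2 there were 3 copies of the CACCC box in a row, each sharing 1 base with the next. The letters of the GATA motif were not in the windows of Gata1 or Tfrc. These matches are descriptions of the letters in the windows, and binding was not measured.

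After 48 h with GPI, 6 of the 8 genes were called lower than with vehicle, as were 11.9% of all tested genes. The largest difference was in the anion exchanger Slc4a1, whose fitted level with GPI was 3.59% of the vehicle level. Ermap was at 17.6%, Epb42 at 27.2% and Klf1 at 30.5%. The heme enzyme Alas2 was at 59.7% and the transferrin receptor Tfrc at 60.2%. The erythropoietin receptor gene Epor and the regulator Gata1 had too few counts to enter the test. In RNA from whole gonads, fewer cells of a type and less RNA per cell cannot be told apart.

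A low-count filter (about 10 counts or more in at least 5 libraries) left 13941 genes for edgeR's quasi-likelihood test with embryo and treatment in the design. Of the 8 genes, 6 passed the filter, and Slc4a1 and Epb42 passed it through their vehicle libraries alone. Each of the 6 was lower with GPI at a Benjamini-Hochberg adjusted p under 0.05, as were 1654 of the 13941 tested genes (11.9%); a further 1544 (11.1%) were higher, which makes 3198 called in all (22.9%). In 5 of the 8 genes every GPI library lay below every vehicle library, which held for 1260 tested genes (9.04%); for 986 (7.07%) every GPI library lay above. The median log2 fold change was -1.80 over the 6 tested genes and -1.48 over all 8 in a fit without the filter, against 0.02 over all tested genes.

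**Figure D1:**
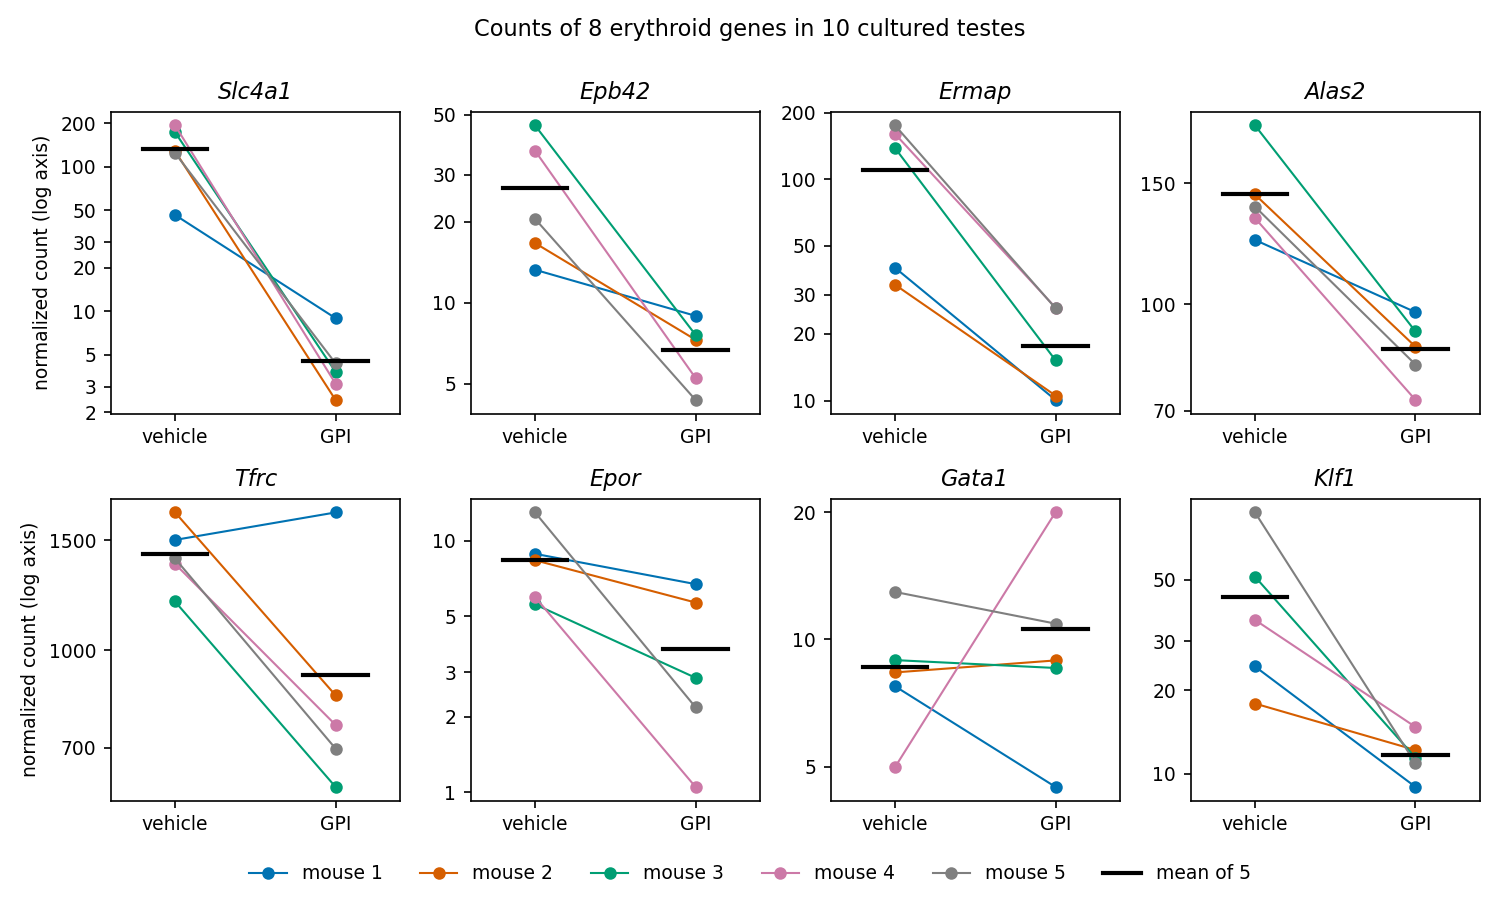
Normalized counts (log axis, each panel with its own range) of the 8 genes in the vehicle and GPI gonads of the 5 mouse embryos, with a line joining the gonads of 1 embryo and a black bar at the group mean. The lines fall in all 5 embryos for Slc4a1, Epb42, Ermap, Alas2, Epor and Klf1, in 4 of 5 for Tfrc, and go both ways for Gata1.

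Slc4a1 (Entrez 20533, chr11:102348820-102365281, minus strand) encodes the most abundant integral membrane protein of the mature red cell. It had 46.5, 129, 174, 194 and 125 normalized counts in the vehicle gonads of mice 1 to 5, and 8.95, 2.43, 3.80, 3.16 and 4.36 in their GPI gonads. The vehicle gonad of mouse 1 was the lowest of its group and still lay far above every GPI gonad, so the groups did not overlap. The raw counts were 42 to 195 with vehicle and 3 to 8 with GPI, so the GPI level rests on few reads. The means were 134 ± 57.0 (SD, n = 5) and 4.54 ± 2.57 (SD, n = 5), a log2 fold change of -4.80 (SE 0.42, edgeR adjusted p = 2.11e-06). Mouse 1 had the smallest difference between its gonads, and without mouse 1 the log2 fold change was -5.47.

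Epb42 (Entrez 13828, chr2:121017891-121036877, minus strand), whose product helps tie the anion exchanger to the skeleton under the membrane, was scarce in all libraries. Its normalized counts were 13.3, 16.7, 45.8, 36.9 and 20.6 with vehicle and 8.95, 7.30, 7.61, 5.26 and 4.36 with GPI for mice 1 to 5. Mice 3 and 4 were high among the vehicle gonads, and all GPI gonads lay below all vehicle gonads. The means were 26.6 ± 14.0 and 6.70 ± 1.86 (SD, n = 5 each), with a log2 fold change of -1.88 (SE 0.45, edgeR adjusted p = 0.00823). The call was lost without mouse 3, where the log2 fold change was -1.69 and the adjusted p 0.0509, the highest of a range from 0.00305 over the alternatives.

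Ermap (Entrez 27028, chr4:119175457-119190011, minus strand), a red cell surface protein that carries blood group antigens in people, had 39.9, 33.4, 138, 160 and 175 normalized counts with vehicle. In the GPI gonads of the same mice it had 10.1, 10.5, 15.2, 26.3 and 26.2. The vehicle gonads of mice 1 and 2 were well below those of mice 3, 4 and 5, and the groups did not overlap. The means were 109 ± 67.8 with vehicle and 17.7 ± 8.08 with GPI (SD, n = 5 each). The log2 fold change was -2.51 (SE 0.27, edgeR adjusted p = 1.25e-05), and all 5 mice were lower.

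Alas2 (Entrez 11656, chrX:150547417-150570622, plus strand), the red cell form of the enzyme that starts heme synthesis, had 124, 144, 182, 133 and 139 normalized counts with vehicle. With GPI it had 97.4, 86.7, 91.3, 72.6 and 81.7. The highest GPI gonad lay below the lowest vehicle gonad, and both of these came from mouse 1. The means were 145 ± 22.3 and 85.9 ± 9.43 (SD, n = 5 each), with a log2 fold change of -0.75 (SE 0.16, edgeR adjusted p = 0.00412). Alas2 was even among the gonads of a group, with a coefficient of variation of 15.4% with vehicle and 11.0% with GPI. The microRNA gene Mir3620 lies within it on the other strand, and the counting did not use strand, so reads of the pair cannot be told apart.

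Tfrc (Entrez 22042, chr16:32608896-32632794, plus strand), the receptor through which cells take up iron bound to transferrin, had 1500, 1661, 1197, 1375 and 1402 normalized counts in the vehicle gonads. In the GPI gonads it had 1660, 848, 606, 761 and 697. Mouse 1 stood apart: its GPI gonad was at the level of the highest vehicle gonad, so the groups overlapped, while the other 4 mice were lower with GPI. The means were 1427 ± 171 with vehicle and 914 ± 426 with GPI (SD, n = 5 each). The log2 fold change was -0.73 (SE 0.14, edgeR adjusted p = 0.00193), and -0.97 without mouse 1.

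Klf1 (Entrez 16596, chr8:84901928-84905295, plus strand), the regulator named for its role in red cells, had 24.4, 17.9, 51.4, 35.9 and 87.6 normalized counts with vehicle. With GPI it had 8.95, 12.2, 11.4, 14.7 and 10.9. Mouse 5 was the highest vehicle gonad and mouse 2 the lowest, and every GPI gonad lay below them all. The means were 43.4 ± 27.8 and 11.6 ± 2.10 (SD, n = 5 each), with a log2 fold change of -1.71 (SE 0.39, edgeR adjusted p = 0.00581).

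Gata1 (Entrez 14460, chrX:7959260-7967910, minus strand) and Epor (Entrez 13857, chr9:21958899-21963576, minus strand) were near the limit of what these libraries can count. Gata1 had raw counts of 7, 7, 8, 5 and 17 with vehicle and 4, 11, 9, 19 and 10 with GPI; scaled for library size, it was lower in 3 mice and higher in 2. Epor had 8, 7, 5, 6 and 17 raw counts with vehicle and 6, 7, 3, 1 and 2 with GPI. Scaled for library size, Epor was lower with GPI in all 5 mice, and its groups overlapped. In the edgeR fit without the filter the log2 fold change was 0.20 for Gata1 (adjusted p = 0.895) and -1.24 for Epor (adjusted p = 0.371). No difference was called for either gene in that fit, which rests on few reads.

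**Figure D2:**
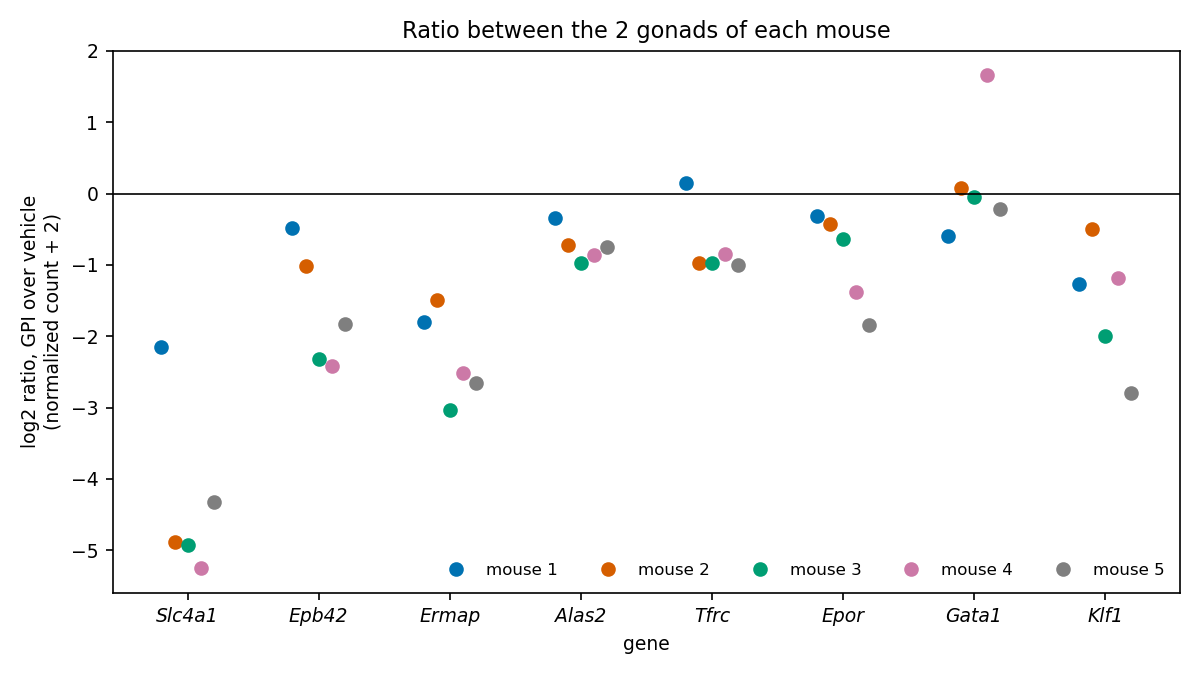
Log2 ratio of the GPI to the vehicle gonad of each mouse embryo for the 8 genes, with 2 added to each normalized count, 1 point per embryo and a line at 0. Slc4a1 lies between -5.25 and -4.32 in 4 mice and at -2.15 in mouse 1; mouse 1 is also the mouse with Tfrc above 0, at 0.15.

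Embryos differed in how far each gene fell. The vehicle gonads of mice 1 and 2 were the lowest 2 of their group for Ermap, Epb42 and Klf1, and the same mice had the smallest drops in Ermap and Epb42. Mouse 1 had the smallest drop in Slc4a1, Epb42, Alas2 and Epor and a higher Tfrc, and its GPI gonad was the highest of the GPI group for these 5 genes. For Ermap, Klf1 and Gata1, by contrast, the GPI gonad of mouse 1 was the lowest of its group. On the log2 scale with 2 added to each normalized count, the Alas2 ratio of GPI to vehicle ran from -0.98 in mouse 3 to -0.34 in mouse 1. The Klf1 ratio ran from -2.80 in mouse 5 to -0.49 in mouse 2. Among vehicle gonads the coefficient of variation was 64.0% for Klf1, 61.9% for Ermap, 52.6% for Epb42 and 42.6% for Slc4a1, against 12.0% for Tfrc.

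Per transcript length, which lets genes be compared with each other, Tfrc had the highest level of the 8 genes in vehicle gonads, at an RPKM of 23.7 ± 2.83 (SD, n = 5), where RPKM is the read count scaled to transcript length and library size. Alas2 followed at 5.75 ± 0.886, and no vehicle gonad of Alas2 reached the lowest Tfrc value. Slc4a1 at 2.39 ± 1.02, Klf1 at 2.30 ± 1.47 and Ermap at 1.95 ± 1.21 did not differ beyond their spread. Epb42, Epor and Gata1 were the lowest, at 0.525, 0.384 and 0.366, and also within each other's spread. With GPI the order was different: Slc4a1, which came after Alas2 with vehicle, had the lowest mean of the 8 at 0.0810 ± 0.0458. Epb42 at 0.132 ± 0.0366 and Epor at 0.170 ± 0.110 were next, and the values of these 3 genes overlapped among the GPI gonads. Alas2 with GPI was at 3.42 ± 0.375 and Tfrc at 15.2 ± 7.06.

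**Figure D3:**
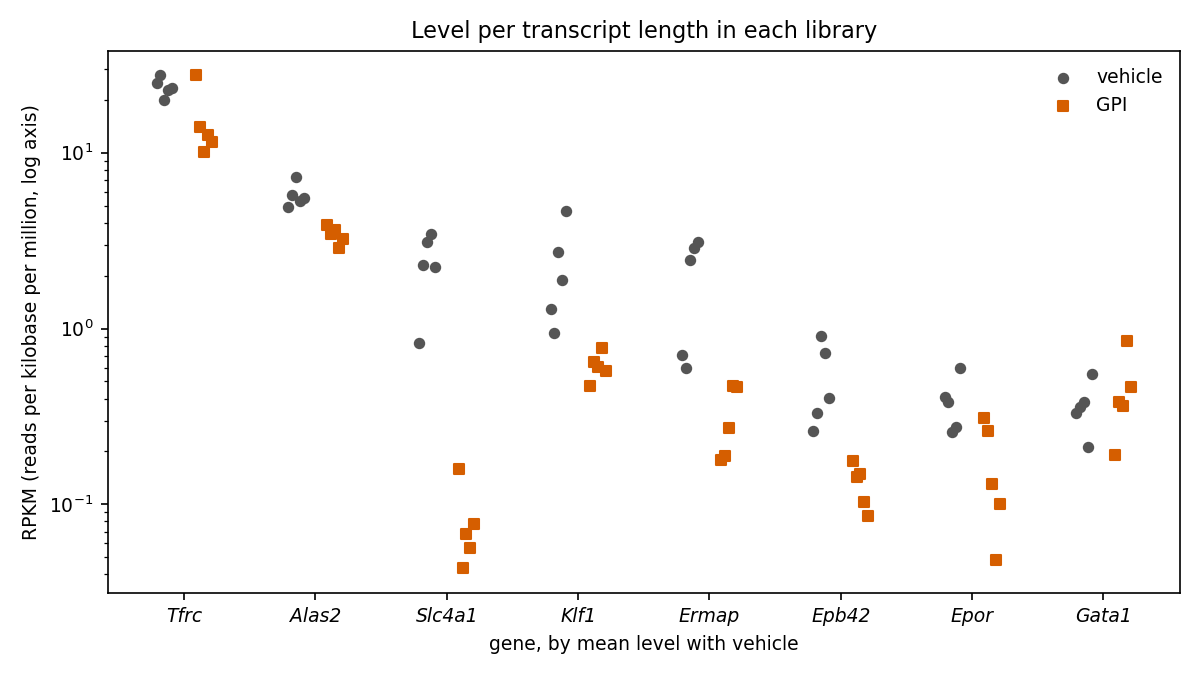
Level per transcript length (RPKM, log axis) of the 8 genes in each library, ordered by the vehicle mean, with circles for vehicle and squares for GPI. Slc4a1 moves from a mean of 2.39 with vehicle to 0.0810 with GPI, while Tfrc and Alas2 keep the highest levels in both groups.

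Ratios of raw counts within a library do not depend on how libraries are scaled, and they show that the genes fell by unequal amounts; the pairs were chosen after the values were seen and are given with no test. For each Alas2 read there were 0.375 to 1.46 Slc4a1 reads in the vehicle libraries (median 0.901) and 0.0280 to 0.0920 in the GPI libraries (median 0.0435). For Ermap over Alas2 the range was 0.231 to 1.26 with vehicle (median 0.761) and 0.103 to 0.362 with GPI (median 0.167). These ranges overlapped, and within every mouse the ratio was lower with GPI. Alas2 over Alas1, the form of the enzyme that other cells use, was 0.622 to 0.948 with vehicle and 0.228 to 0.481 with GPI. Hbb-bs, an adult beta globin gene, over Hbb-y, an embryonic one, was 0.203 to 0.525 with vehicle and 0.0231 to 0.0589 with GPI.

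Other genes of the red cell membrane and its skeleton were measured beside Slc4a1, Epb42 and Ermap. Of 15 listed, 11 were tested, and 6 of these fell while 5 did not pass the test (median log2 fold change -1.16). The share of all tested genes called lower was 11.9%. In the fit without the filter, 8 of the 15 were lower, against 1882 of 20287 genes, and the median of the 15 was -1.46. Among those that fell, the adducin gene Add2 had a mean of 147 ± 41.1 normalized counts with vehicle and 17.6 ± 10.4 with GPI (SD, n = 5 each), a log2 fold change of -3.10 (SE 0.37, edgeR adjusted p = 3.25e-05). Dmtn, which passed the filter through its vehicle libraries alone, the water channel gene Aqp1 and the ankyrin gene Ank1 had log2 fold changes of -2.95, -2.63 and -1.16. The 5 that did not pass the test were Rhd, Sptb, Epb41, Xk and Tmod1. Their log2 fold changes were -1.01, -0.33, -0.08, 0.03 and 0.62. Tmod1 overlaps Tstd2 on the other strand, Xk overlaps H2al1m, and Ank1 overlaps the microRNA genes Mir3107 and Mir486. The counting did not use strand, so reads from the shared stretches cannot be told apart. Rhag, the gene of the Rh-associated glycoprotein, was set aside by the filter with raw counts of 9 to 76 with vehicle and 0 to 5 with GPI, and Kel with 6 to 54 and 0 to 9.

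Other genes of heme synthesis and its mitochondrial carriers were measured beside Alas2. All 13 listed genes were tested; 1 fell, 1 rose and 11 did not pass the test, where 22.9% of all tested genes were called in either direction. Their median log2 fold change was 0.02. The gene that fell was Slc25a37, which encodes mitoferrin, the carrier that brings iron into mitochondria of red cell precursors. Its mean was 515 ± 157 normalized counts with vehicle and 250 ± 31.8 with GPI (SD, n = 5 each), a log2 fold change of -0.997 (SE 0.17, edgeR adjusted p = 0.000708). Alas1 rose by 0.45 on the log2 scale (SE 0.15, edgeR adjusted p = 0.0432), and it lost this call when mouse 2, 3, 4 or 5 was left out. Alad, which encodes the next enzyme of the pathway, had a log2 fold change of -0.12. Fech, the last enzyme, which puts iron into the ring, had 0.08.

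Among other genes of iron uptake, storage and sensing, 11 of 12 were tested. Of these, 4 rose and 7 did not pass the test (median log2 fold change 0.28), against 11.1% of all tested genes called higher. The ferritin genes Fth1 and Ftl1, whose products store iron, had log2 fold changes of 0.41 (SE 0.07, edgeR adjusted p = 0.000522) and 0.48 (SE 0.08, adjusted p = 0.000731). Aco1, which encodes an aconitase that also acts as an iron sensor, rose by 0.93 (SE 0.11, adjusted p = 2.87e-05), and the iron exporter gene Slc40a1 by 0.41. Steap3, a reductase that works with the transferrin receptor, had a log2 fold change of 0.84 (adjusted p = 0.0630). Tfr2, the other transferrin receptor gene, had raw counts of 0 to 7 and was not tested. Ferritin genes have processed copies elsewhere in the genome, so their reads may be split between copies.

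Of 14 other regulators of red cell genes, 11 were tested. Of these, 2 fell, 2 rose and 7 did not pass the test (median log2 fold change -0.24). Among all tested genes, 11.9% were called lower and 11.1% higher. The number of regulators that fell depended on the fit. It was 4 with DESeq2, 6 with mouse 2 left out and 6 of all 14 without the filter. Without the filter, 1882 of 20287 genes were lower and the median of the 14 was -0.75. Tal1, a partner of GATA1 on DNA, had 29 to 104 raw counts with vehicle (median 72) and 3 to 10 with GPI (median 6), a log2 fold change of -3.29 (SE 0.38, edgeR adjusted p = 2.74e-05). Lmo2, which bridges TAL1 and GATA1, fell by 2.67 on the log2 scale (SE 0.19, edgeR adjusted p = 4.46e-07). Both genes are also used by endothelial cells. Cbfa2t3, a corepressor, rose by 1.13 on the log2 scale, and Foxo3 by 0.25; 1 gene of the list was called higher when mouse 1, 3 or 4 was left out. Gfi1b had 17, 1, 9, 1 and 19 raw counts with vehicle and 0 in each GPI library, and was set aside by the filter. Zfpm1, the gene of the GATA1 partner FOG1, had a log2 fold change of 0.19 and Ldb1 of -0.17, and neither passed the test.

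Genes of erythropoietin signaling beside Epor were 9, of which 8 were tested. Of these, 3 fell and 5 did not pass the test (median log2 fold change -0.13), against 11.9% of all tested genes called lower. Jak2, the kinase bound to the receptor, had a log2 fold change of -0.14 (edgeR adjusted p = 0.305), and Stat5a and Stat5b had 0.21 and 0.37. Lyn, a kinase of many blood cells, fell by 1.67 on the log2 scale (SE 0.19, edgeR adjusted p = 3.00e-05). Pim1 and Socs3 fell by 0.76 and 0.72; 1 gene of the list was called lower when mouse 4 or mouse 5 was left out. The hormone gene Epo itself had 7 raw counts in the vehicle library of mouse 2, and 0 in the other vehicle libraries and in each GPI library.

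Of 13 listed late red cell genes 12 were in the table and 7 were tested. Among the 7, 3 fell and 4 did not pass the test (median log2 fold change -0.08), against 11.9% of all tested genes called lower. The filter set aside 5, among them Trim10 with 3 to 27 raw counts with vehicle and 0 to 2 with GPI, and Cldn13 with 1 to 23 and 0. Without the filter 5 of the 12 were lower and 1 was higher, against 1882 lower and 1590 higher of 20287 genes. The median of the 12 was -1.32. It was -1.24 with Cldn13 and Trim58 set at the fold that 3 counts over the group would give. Both were at 0 in every GPI library. With mouse 1 left out, 1 gene of the list was called higher. Hemgn, a nuclear protein of blood cell precursors, had 83.0, 62.1, 204, 237 and 299 normalized counts with vehicle and 7.83, 3.24, 8.56, 0 and 9.81 with GPI. Its log2 fold change was -4.81 (SE 0.40, edgeR adjusted p = 1.63e-06), and it passed the filter through its vehicle libraries alone. Its vehicle gonads were low in mice 1 and 2, as for Ermap. Car2, a carbonic anhydrase, fell by 3.08 on the log2 scale (SE 0.28, edgeR adjusted p = 2.94e-06), and Bnip3l, which serves the removal of mitochondria, by 0.45. Prdx2, which many cells use, and Bpgm had log2 fold changes of 0.14 and 0.41 and did not pass the test.

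The 7 globin genes were all tested. Among them 5 fell and 2 did not pass the test (median log2 fold change -1.49), against 11.9% of all tested genes called lower. The adult genes Hbb-bs and Hbb-bt fell by 4.13 and 3.84 on the log2 scale (edgeR adjusted p = 1.52e-06 and 1.21e-06), and the embryonic Hbb-y by 0.98 (adjusted p = 0.00750). The embryonic alpha-like gene Hba-x had a log2 fold change of -0.45 (adjusted p = 0.296). Hbb-bs and Hbb-bt are close copies of each other, as are Hba-a1 and Hba-a2, so the split of reads within each pair is uncertain. Per transcript length Hbb-y stood at an RPKM of 229 with vehicle and 120 with GPI, above each of the 8 genes in both groups. Summed over the 7 genes, globin counts with GPI were 39.3 ± 19.3% of the vehicle mean (SD, n = 5; 24.1% to 68.4%).

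**Figure D4:**
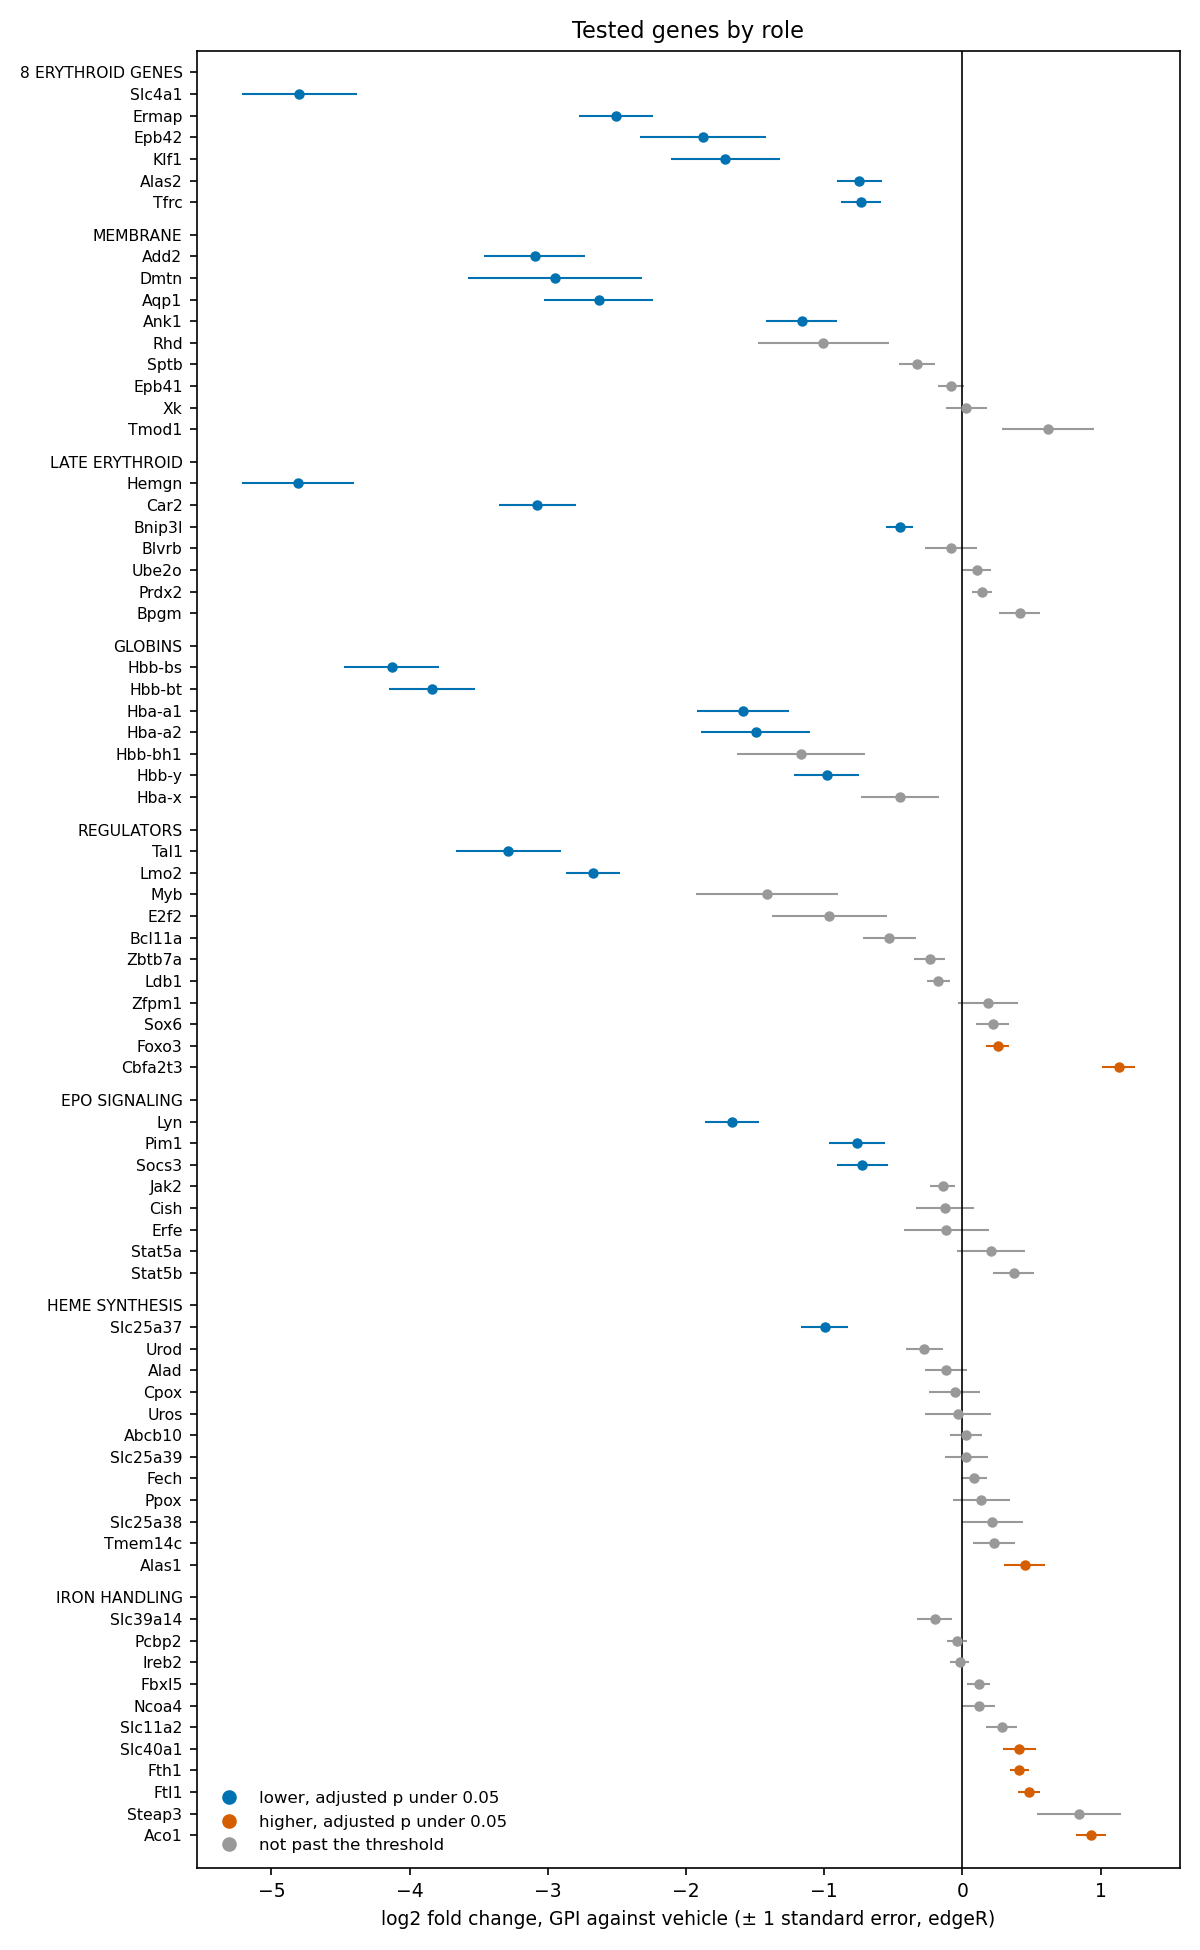
Log2 fold change of GPI against vehicle (edgeR, bars of 1 standard error) for tested genes named in the lists, grouped by role, with blue for lower and orange for higher at an adjusted p under 0.05 and grey for the rest. Among the membrane genes drawn, Add2 lies at -3.10 and Tmod1 at 0.62, whereas of the heme synthesis genes drawn only Slc25a37 and Alas1 are colored.

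Markers of other cells that share a gonad with red cells also differed between the groups, and their part in the values above was not tested. For comparison with the counts of markers, 11.9% of all tested genes were called lower and 11.1% higher. All 8 endothelial markers fell (median log2 fold change -3.11), and their summed normalized counts with GPI were 10.7 ± 2.35% of the vehicle mean (SD, n = 5; 7.78% to 14.0%), with Cdh5 having the most counts in vehicle gonads. Of 9 macrophage markers, 7 were tested and 6 fell (median -1.91, sum 45.0 ± 13.9% of vehicle), and Adgre1 did not pass the test at a log2 fold change of -0.26. Of 7 markers of blood progenitors and white cells, 5 were tested and 5 fell (median -1.85, sum 24.2 ± 6.46%). GATA1 is also made by megakaryocytes and mast cells. Of 9 megakaryocyte and platelet markers, 3 were tested; Pf4, tested through its vehicle libraries alone, fell by 2.66 on the log2 scale, Itga2b and Gp1ba did not pass the test, and the sum was 47.4 ± 14.3% of vehicle. The mast cell marker Fcer1a was at 0 in all 10 libraries and Ms4a2 at 0 in all 5 GPI libraries, and the sum of 9 mast cell and eosinophil markers was 76.4 ± 10.9% of vehicle. Of 4 Sertoli cell markers 3 rose (sum 148 ± 23.8%), and the 4 germ cell markers fell (sum 5.95 ± 3.41%). Of the markers that fell, C1qa among the macrophage, Coro1a among the white cell and Sall4 among the germ cell markers passed the filter through their vehicle libraries alone. Of 6 proliferation genes, Mki67 fell by 0.40 on the log2 scale and 5 did not pass the test (sum 80.9 ± 7.64%), which is given beside Tfrc because dividing cells use it.

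Summed over the 8 genes, normalized counts with GPI were 55.5 ± 22.5% of the vehicle mean (SD, n = 5), and Tfrc was the most abundant gene in every library. By mouse the sum was 94.9%, 51.6%, 39.3%, 47.5% and 44.1% of the vehicle mean, with mouse 1 high as it was for Tfrc. For the other membrane genes the sum was 73.2 ± 6.68%, with Epb41 the most abundant, and for the late red cell genes 85.3 ± 7.63%, with Bnip3l the most abundant. The heme genes summed to 95.1 ± 2.90%, the other regulators to 99.7 ± 3.81%, the erythropoietin signaling genes to 80.2 ± 5.76% and the iron genes to 121 ± 5.02% of vehicle. By the mean over all libraries the most abundant genes of these lists were, in that order, Fech, Foxo3, Jak2 and Fth1. Such sums are weighted to abundant genes.

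**Figure D5:**
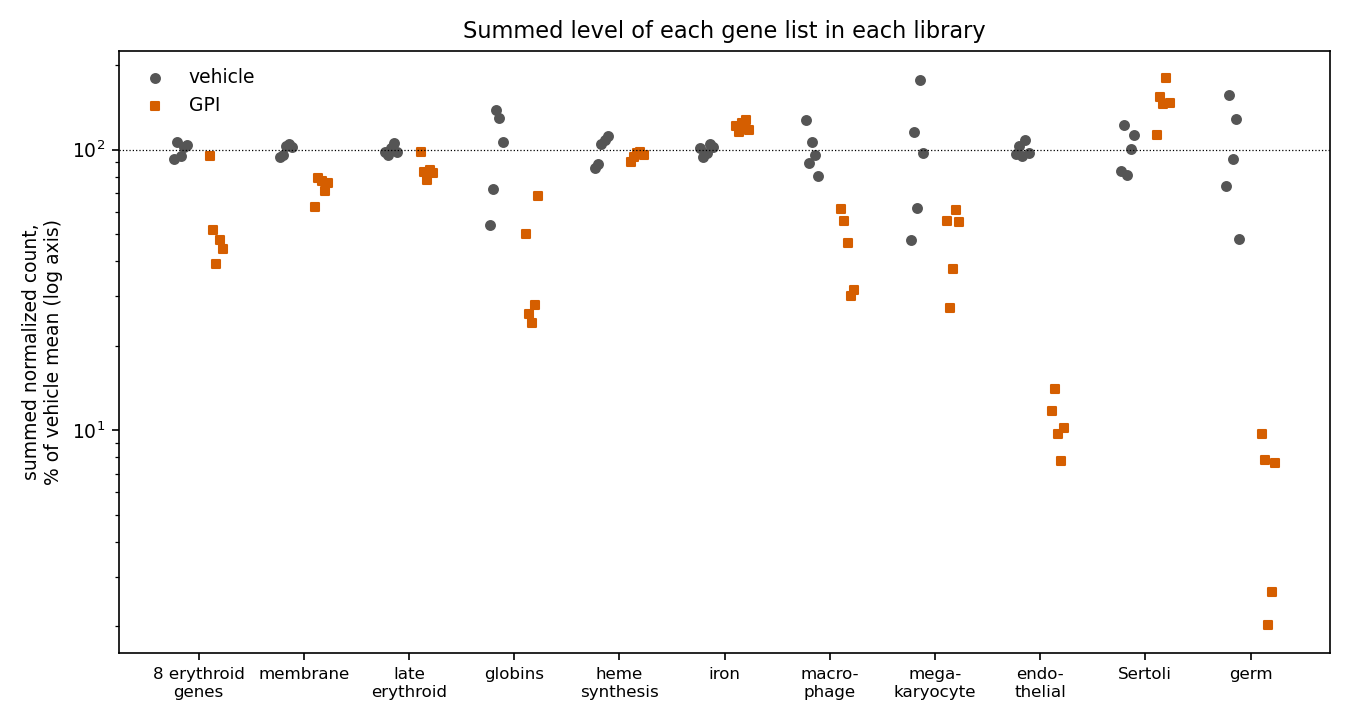
Summed normalized counts of each gene list in each library, as a percentage of the vehicle mean of that list (log axis), with circles for vehicle and squares for GPI. The endothelial and germ cell sums lie lowest with GPI, at means of 10.7% and 5.95%, and the heme and iron sums at 95.1% and 121%.

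Genes whose variation was most like that of Slc4a1, Alas2 and Epb42 were sought among the 11101 tested genes whose mean count reached 50. Likeness was Pearson's r over the 10 libraries, on deviations from the treatment means, with the average of the 3 genes. The highest were Zfp687 (r = 0.91), Ipo13 (0.90), Hyal2 (0.87), Btbd10 (0.87) and B3gnt5 (0.87). They share the libraries and their depth with the 3 genes, and the values of r are a description. Of the 5, B3gnt5 rose with GPI (log2 fold change 0.74, edgeR adjusted p = 8.20e-05), and the other 4 did not pass the test.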

How the data were processed

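RNA was measured in 10 libraries made by amplification of total RNA from single cultured testes. Per the labels and the study's methods, the authors aligned paired-end reads to mm10 with STAR 2.5 and deposited raw counts per gene from featureCounts (Subread 1.5.0-p1), made without regard to strand. Library totals were 10203679 to 15635322 counts. The counts were scaled by TMM in edgeR 4.0.16 (R 4.3.3); filterByExpr (minimum count 10, minimum total 15) kept 13941 genes and set 10529 aside. The quasi-likelihood test had embryo and treatment as terms, since the labels give each animal 1 gonad per treatment; deviations of libraries from 1 embryo correlated at -0.04 to 0.16. Adjusted p-values are Benjamini-Hochberg over all tested genes, with a threshold of 0.05. The code was tested on simulated data. Levels per length use the longest GENCODE transcript matched to a RefSeq mRNA. Alternatives were DESeq2 1.42.0, limma-voom (limma 3.58.1), no embryo term, other scalings and filters, and each mouse left out. The 8 genes and the lists were chosen with earlier results of these data known. Named from each list were its first 2 genes, the 2 with the smallest p and others of the list. Some genes of the lists count in the list totals but are not reported here by name.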

Additional observations from a re-analysis of the deposited data

Results flagged for a closer look

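In the GPI group, the Tfrc value of mouse 1 lay far from the other 4: 1660 normalized counts, against 848 for the next highest and 606 for the lowest. The gap to the nearest value was 0.770 of the group's range, past Dixon's 95% limit for 5 samples. It was the only one of the 16 groups tested (8 genes, vehicle and GPI) past that limit, and chance alone puts about 1 in 20 groups past it. Without mouse 1 the Tfrc log2 fold change was -0.97, against -0.73 with all 5 mice.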

How the results depend on the processing

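With at least 10 counts required in every library, only Alas2 and Tfrc of the 8 genes could be tested; both were lower, so the number called lower was 2 and the median log2 fold change -0.75, since the genes with the largest differences had too few GPI counts to enter. Under the other 7 alternatives that keep all mice, the number called lower was 6 in each. Without the replicate block (embryo left out of the design), 6 of the 8 genes and 3108 of 13941 genes were called, with a median of -1.94, and no call among the 6 changed. Leaving out each mouse in turn gave 5 to 6 genes called lower, with medians of -2.03 to -1.59. The exception was Epb42 without mouse 3 (adjusted p = 0.0509). Over all alternatives the log2 fold change ran from -5.47 to -4.53 for Slc4a1, -2.68 to -2.34 for Ermap, -2.21 to -1.65 for Epb42, -2.00 to -1.37 for Klf1, -0.86 to -0.70 for Alas2 and -0.97 to -0.64 for Tfrc. The genes called in all numbered 2311 to 3472. Across the lists of other membrane, heme, iron, regulator, signaling and late red cell genes, 15 genes were called lower. The numbers tested were, in that order, 11, 13, 11, 11, 8 and 7, and 11.9% of all tested genes were called lower. Over 8 alternatives 13 to 19 genes of these lists were called lower. The number of genes without overlap was 5 under both other scalings tried for it. Gata1 and Epor did not pass the filter, and neither was called in the edgeR fit without it.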
